A study of Homo sapiens with 12 samples.

Results

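BRCA2 and 31 other genes of homologous recombination and the Fanconi anemia pathway were followed in HEK293T cells, an established human embryonic kidney cell line, after treatment with STM2457, which inhibits METTL3, the methyltransferase that writes m6A on RNA. The 32 members were taken by gene symbol and matched to Ensembl identifiers. All 32 were present among the 60662 genes of the RNA count files, and 31 among the 12224 genes of the series table of footprint and RNA signal. FANCF was the member not listed in that table, so its footprints were not analysed here. The cells are labelled wild type, and the series design asks how translation changes when m6A is depleted. The STM2457 arm received 20 µM of the inhibitor with 0.2% DMSO for 6 h, and the DMSO arm received 0.2% DMSO alone for the same 6 h. Both arms received 10% additional serum 1 h before lysis and 100 µg/ml cycloheximide, which stalls elongating ribosomes, for the last 3 min. RNA-seq comprised 4 STM2457 and 4 DMSO libraries and ribosome profiling 2 STM2457 and 2 DMSO libraries. Nothing in the labels makes the replicates separate cultures, and the spread behind the p-values may thus be technical only.

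Homologous recombination repairs a DNA double-strand break by copying the intact sister chromatid. Broken ends are first trimmed to single strands, BRCA2 then acts on these strands to prepare the search for the intact copy, and later enzymes resolve the joined molecules. The Fanconi pathway deals with crosslinks between the DNA strands. There a core complex attaches ubiquitin to FANCD2 and FANCI, and the lesion is handed on to nucleases and to recombination. Several members are Fanconi genes under a second name, among them BRCA2, PALB2, BRIP1 and SLX4, so the pathways share proteins.

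Each RNA-seq library held between 43291730 and 51645739 counts. The footprint reads that could be recovered from the table numbered 4039314 and 3898620 in the STM2457 libraries, against 4711513 and 3198063 in the DMSO libraries. A member had between 21 and 1244 recovered footprint reads in a library, with a median of 155. The first principal component of the RNA libraries (61.6% of the variance) separated the arms, and the second (12.1%) separated replicates 1 and 2 from replicates 3 and 4 in both arms. All 7 listed genes known to be expressed in HEK293 lines averaged at least 1 CPM (read counts scaled for library size), and summed to 1005 to 1038 CPM with STM2457 and 961 to 997 CPM with DMSO. Of the lists of markers of other cells, 1 of 7 fibroblast genes (COL1A1, with FAP at 0) and 0 of 5 keratinocyte genes (KRT5 at 0) reached 1 CPM. The fibroblast list summed to 16.9 to 17.8 CPM with STM2457 and 16.1 to 20.0 CPM with DMSO, and the keratinocyte list to 0.0812 to 0.147 CPM with STM2457 and 0 to 0.0953 CPM with DMSO. METTL3 RNA, which an enzyme inhibitor does not target, was at 83.3 ± 6.71 CPM with STM2457 and 75.7 ± 6.71 CPM with DMSO (SD, n = 4 each) and did not pass the test (edgeR adjusted p = 0.104). The other 4 m6A factors examined, METTL14, WTAP, RBM15 and YTHDF2, had higher RNA with STM2457 (log2 changes 0.55, 0.80, 2.14 and 1.60, each past the edgeR test). Over all 17807 genes tested 26.2% were higher, and these factors were listed with earlier results of these data known.

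BRCA2 (ENSG00000139618.15, chromosome 13) was the only member called higher in RNA and lower in footprints. Its RNA was higher with STM2457 in all 4 libraries, while its ribosome footprints were several times lower in both. BRCA2 RNA stood at 51.9, 52.95, 56.6 and 58.7 CPM in the STM2457 libraries, against 41.4, 44.9, 41.8 and 42.4 CPM in the DMSO libraries. The arms did not overlap, and the RNA log2 fold change of 0.37 (SE 0.04) passed edgeR's quasi-likelihood test with an adjusted p of 1.52e-05 (Benjamini-Hochberg over 17807 genes). Scaled by the spike-ins, the BRCA2 RNA change was 0.17 and still passed (edgeR adjusted p = 0.0113). The replicate sets that the second component separates gave 0.27 for replicates 1 and 2 and 0.45 for replicates 3 and 4, both past the test.

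BRCA2 footprint signal, in reads scaled by the authors per library, was 224.1 and 105.4 with STM2457 and 743.5 and 751.9 with DMSO. Both STM2457 libraries lay far below both DMSO libraries, although the STM2457 pair differed from each other much more than the DMSO pair did. These signals rest on 59 and 27 recovered reads with STM2457 and 231 and 156 with DMSO. The exact 95% Poisson intervals, which cover counting error only, run from 44.9 to 76.1 and from 17.8 to 39.3 reads with STM2457, and from 202 to 263 and from 132 to 182 reads with DMSO. On the log2(signal + 1) scale the footprint change was −2.27 (SE 0.23, limma adjusted p = 1.63e-11). It was −1.73 without STM2457 footprint replicate 2 and −2.82 without STM2457 footprint replicate 1, past the test each time.

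Translational efficiency is the footprint signal of a gene relative to its RNA signal, so it asks how densely the RNA at hand carries ribosomes. BRCA2 efficiency in single footprint libraries, over the mean RNA signal of the same arm, was 0.201 and 0.0944 with STM2457 and 0.846 and 0.855 with DMSO. The efficiency log2 fold change, fitted as the interaction of assay and treatment, was −2.62 (SE 0.27, limma adjusted p = 0.000107). An edgeR interaction on deposited RNA counts and recovered footprint reads gave −2.50 (adjusted p = 9.78e-06). Among 10906 genes tested, BRCA2 had the most negative efficiency change with both tools, and its footprint change was the 15th most negative. The authors' deposited table gives efficiencies of 0.152 with STM2457 and 0.853 with DMSO and a log2 fold change of −2.49, and 1 gene of that table has a more negative value.

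**Figure D1:**
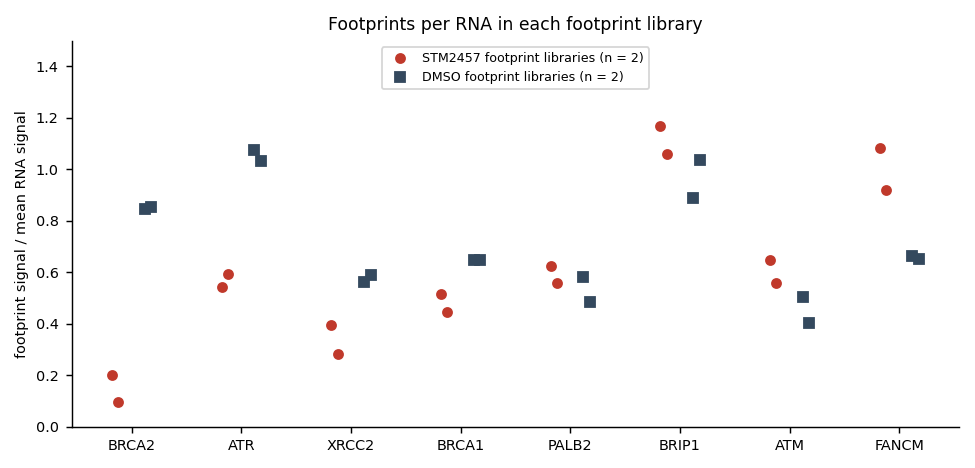
Footprint signal divided by the mean RNA signal of the same arm (vertical axis, a ratio) for 8 members, with 1 point per footprint library, 2 STM2457 libraries (circles) left of 2 DMSO libraries (squares). BRCA2 lies at 0.201 and 0.0944 with STM2457 and at 0.846 and 0.855 with DMSO, ATR at 0.543 and 0.594 against 1.08 and 1.03, and FANCM at 1.08 and 0.922 against 0.663 and 0.651.

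ATR, the kinase that responds to single-stranded DNA at stalled forks and resected breaks, was the only other member to pass the efficiency test. Its RNA was at 42.7, 44.2, 38.9 and 43.5 CPM with STM2457 and 40.5, 41.6, 40.5 and 41.1 CPM with DMSO, so the arms overlapped. The RNA change of 0.05 (SE 0.04) did not pass the test (edgeR adjusted p = 0.348), but passed without STM2457 RNA replicate 3 (0.09, adjusted p = 0.0385). It turned to −0.15 with spike-in scaling (edgeR adjusted p = 0.0225) and −0.11 in the RNA columns of the table (limma adjusted p = 0.041). ATR footprint signal was 471 and 515.4 with STM2457 and 1007 and 968.7 with DMSO, a log2 change of −1.002 (SE 0.15, limma adjusted p = 1.06e-06). Each STM2457 library therefore held close to 50% of the DMSO level, on 124 and 132 recovered reads with STM2457 and 313 and 201 with DMSO. ATR efficiency was 0.543 and 0.594 with STM2457 and 1.08 and 1.03 with DMSO. Its log2 change of −0.89 (SE 0.16) had a limma adjusted p of 0.0129 and, with the edgeR interaction, a value of −1.01 and an adjusted p of 8.81e-05. The limma efficiency call was lost when any 1 of the 4 footprint libraries was left out (adjusted p 0.058 to 0.123, changes −0.96 to −0.83). ATM, the kinase that answers double-strand breaks, had footprint signals of 657 and 570 with STM2457 and 579 and 463 with DMSO and an efficiency change of 0.41 that did not pass (limma adjusted p = 0.371).

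Across the members, 0 had higher efficiency and 2, BRCA2 and ATR, had lower efficiency at an adjusted p under 0.05, where 0.229% and 0.807% of all 10906 genes did. The fall of BRCA2 efficiency was known when the members were chosen. Counts of lower members that include BRCA2 are thus no test of the list against all genes. The edgeR interaction called 1 member higher, FANCM, and 3 lower, BRCA1 beside BRCA2 and ATR, where it called 1.14% of all genes higher and 2.76% lower. With RNA replicates 1 and 2 only it called 0 members higher and 2 lower. The members' median efficiency change was 0.06, against 0.01 over all genes. The 29 members not called ran from −0.78 for XRCC2 to 0.60 for FANCM. Setting BRCA2 beside its partners, BRCA1 changed by −0.44 in efficiency, PALB2 by 0.15, BARD1 by 0.30 and BRIP1 by 0.22, and none of these 4 passed (limma adjusted p 0.341, 0.867, 0.727 and 0.773). In the authors' deposited table the members' median efficiency was 0.862 with STM2457 and 0.855 with DMSO.

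**Figure D2:**
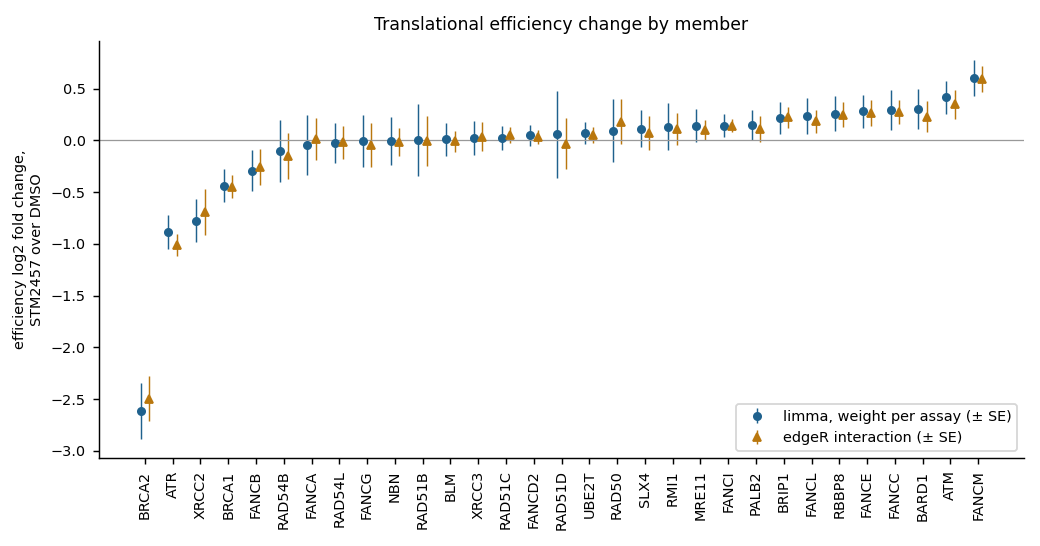
Log2 fold change of translational efficiency, STM2457 over DMSO (vertical axis), for the 31 members with footprints, in order of the limma value (circles) and with the edgeR interaction beside it (triangles); bars are 1 SE. BRCA2 at −2.62 and ATR at −0.89 stand at the low end, and FANCM at 0.60 at the high end.

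Counting RNA alone, 10 of the 32 members rose and 7 fell after STM2457 (edgeR adjusted p under 0.05), where 26.2% of all 17807 genes tested were higher and 21.6% lower. These shares are close to those of the genome, and the members' median log2 fold change was 0.02, against 0.00 over all genes. The other 15 members lay between −0.10 and 0.14 (adjusted p 0.0845 to 0.855). Scaling the libraries by the ERCC spike-ins instead moved the median of all genes by −0.19 and gave 6 members higher and 19 lower, where 12.1% and 47.1% of all genes were. All 6 of those, BRCA2, BRIP1, RMI1, FANCB, FANCE and SLX4, and 7 of those 19 had been called in the same direction without spike-in scaling. The RNA columns of the series table gave 9 members higher and 12 lower, where 27.4% and 34.6% of its 10906 tested genes were.

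**Figure D3:**
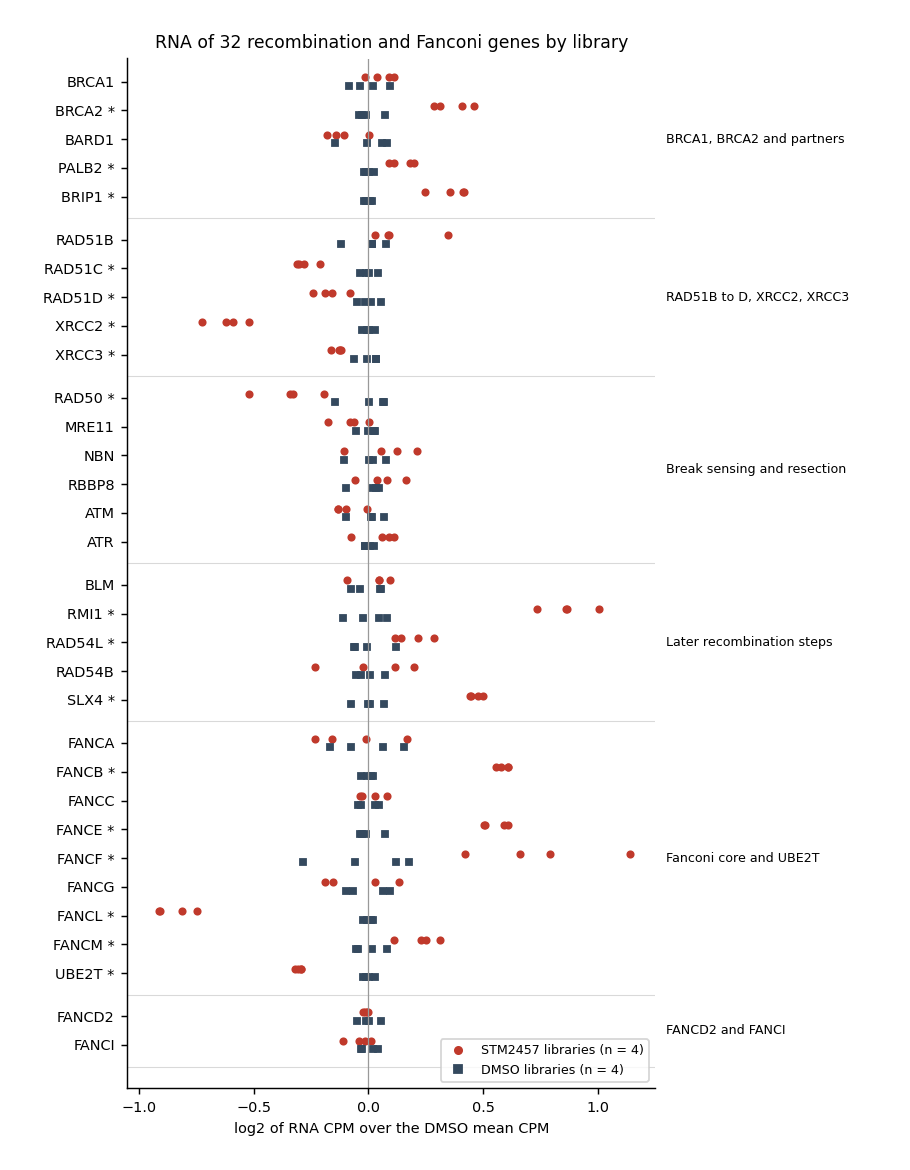
RNA level of each of the 32 members in each library as the log2 of its CPM over the DMSO mean CPM (horizontal axis), with 4 STM2457 libraries (circles) above 4 DMSO libraries (squares); members are grouped by role and a star marks an edgeR adjusted p under 0.05. RMI1, FANCF, FANCB and FANCE lie farthest to the right and FANCL and XRCC2 farthest to the left, while FANCD2 and FANCI lie near 0 in both arms.

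Counting footprints, 4 of 31 members were higher and 6 lower with STM2457, where 9.59% of 10906 genes were higher and 6.13% lower. BRIP1, RMI1, FANCE and FANCM were the 4 higher members, and BRCA1, BRCA2, XRCC2, ATR, FANCL and UBE2T the 6 lower ones. The other 21 members lay between −0.28 and 0.55 (limma adjusted p 0.1002 to 0.994). The members' median footprint change was −0.03, against −0.02 over all genes. Higher RNA together with lower footprints was found for 1 member, BRCA2, and for 0.405% of the 10864 genes in both tests. As BRCA2 was listed with its efficiency fall known, that share is no test of the members. Both measures were lower for XRCC2, FANCL and UBE2T, and both were higher for BRIP1, RMI1, FANCE and FANCM.

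**Figure D4:**
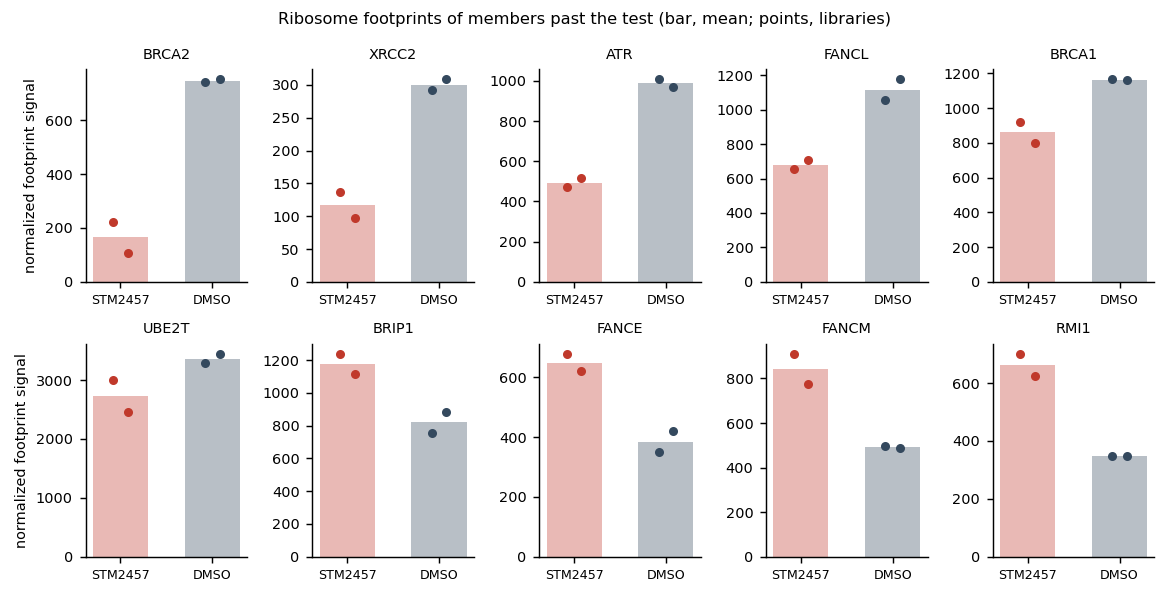
Normalized footprint signal (vertical axes from 0, scaled separately per gene) of the 10 members past the footprint test, with bars at the mean of 2 libraries and points for single libraries, STM2457 left of DMSO. The arms do not overlap in any of the 10, but these members were picked by a test on the same libraries, so this adds no support. The log2 change is largest in size for BRCA2 (−2.27), at 224.1 and 105.4 with STM2457 against 743.5 and 751.9 with DMSO.

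Across 31 members the footprint change correlated with the RNA change at a Pearson's r of 0.462 and a Spearman's rho of 0.623, given as a description, since the members share the same libraries. Without BRCA2, left out with its values known, r was 0.776 and rho 0.742 across 30 members.

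**Figure D5:**
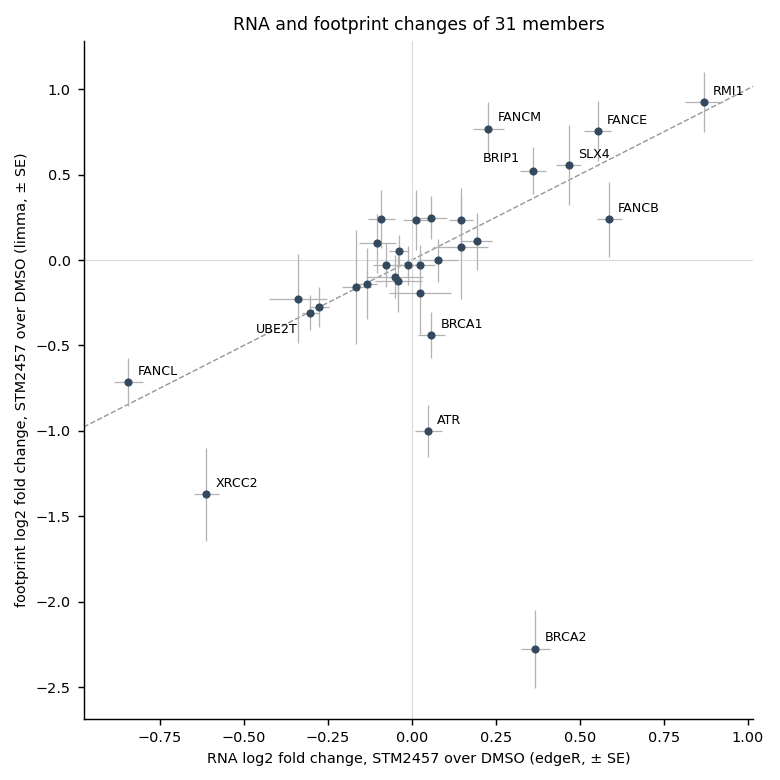
Footprint log2 fold change (vertical axis, limma) against RNA log2 fold change (horizontal axis, edgeR) for 31 members, STM2457 over DMSO, with bars of 1 SE and a dashed line where both are equal. BRCA2, at 0.37 for RNA and −2.27 for footprints, lies farthest below the line, and ATR and XRCC2 lie below it by less.

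Within the group around BRCA1 and BRCA2, 3 of 5 members had higher RNA and none lower, where 26.2% and 21.6% of all genes were. With spike-in scaling, where 12.1% and 47.1% of all genes were called higher and lower, BRCA2 and BRIP1 were higher and BRCA1 and BARD1 lower. BRIP1, a helicase that binds BRCA1, rose in both measures. BRIP1 RNA was at 65.2, 65.1, 58.0 and 62.6 CPM with STM2457 and 48.6, 49.5, 49.2 and 48.3 CPM with DMSO, a log2 change of 0.36 (edgeR adjusted p = 5.62e-06). BRIP1 footprint signal was 1234 and 1117 with STM2457 and 756.4 and 882 with DMSO, a change of 0.52 (limma adjusted p = 0.00443), and the arms did not overlap in either measure. The BRIP1 footprint call was lost without DMSO footprint replicate 1 (adjusted p = 0.108). PALB2, which bridges BRCA1 and BRCA2, had an RNA change of 0.15 (edgeR adjusted p = 0.00427) that was lost with replicates 3 and 4 only (0.10, adjusted p = 0.168) and turned to −0.05 with spike-in scaling, and a footprint change of 0.23 (limma adjusted p = 0.464).

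BRCA1, a ubiquitin ligase that promotes trimming of broken ends, had lower footprints with no RNA call. BRCA1 RNA was at 95.4, 99.0, 92.0 and 100.3 CPM with STM2457 and 94.1, 99.2, 90.6 and 87.6 CPM with DMSO, an overlap with a change of 0.06 (edgeR adjusted p = 0.264) that was −0.14 with spike-in scaling (edgeR adjusted p = 0.0226). BRCA1 footprint signal was 922.9 and 796.5 with STM2457 and 1165 and 1162 with DMSO, a change of −0.44 (SE 0.14, limma adjusted p = 0.0176). That call was lost without STM2457 replicate 2, DMSO replicate 1 or DMSO replicate 2 of the footprint libraries (adjusted p 0.152, 0.0987 and 0.107). The BRCA1 efficiency change of −0.44 did not pass with limma (adjusted p = 0.341), while the edgeR interaction gave −0.45 with an adjusted p of 0.0349. With RNA replicates 1 and 2 only, the numbers that the footprint libraries carry, the edgeR interaction did not call BRCA1 (−0.39, adjusted p = 0.123). BARD1, the partner subunit of BRCA1, had an RNA change of −0.10 and a footprint change of 0.10 and passed neither test. Its RNA change passed without DMSO RNA replicate 3 (−0.15, edgeR adjusted p = 0.0235) and in the RNA columns of the table (−0.20, limma adjusted p = 0.00424).

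RAD51B, RAD51C, RAD51D, XRCC2 and XRCC3 form complexes that act beside BRCA2 in recombination. Of these 5 members 4, all but RAD51B, had lower RNA and none had higher RNA, where 21.6% and 26.2% of all genes did. The same 4 were lower with spike-in scaling, where 47.1% of all genes were. XRCC2 moved most, with RNA at 71.9, 66.9, 77.2 and 73.5 CPM in the STM2457 libraries, against 110.7, 108.6, 112.9 and 110.1 CPM in the DMSO libraries. The arms were well apart, and the log2 change was −0.61 (SE 0.04, edgeR adjusted p = 4.12e-08). XRCC2 footprint signal was 136.7 and 97.6 with STM2457 and 292.9 and 308.5 with DMSO, a change of −1.37 (SE 0.27, limma adjusted p = 0.00013) on 36 and 25 recovered reads with STM2457 and 91 and 64 with DMSO. The RNA columns of the table, which the limma efficiency fit uses, gave XRCC2 an RNA change of −0.60 (limma adjusted p = 1.98e-07). The footprint change was larger in size than either RNA change, but the XRCC2 efficiency change of −0.78 (SE 0.21) passed neither with limma (adjusted p = 0.0958) nor with the edgeR interaction (adjusted p = 0.101). It did pass without STM2457 footprint replicate 1 (−1.02, limma adjusted p = 0.0482). RAD51C, found in both of these complexes, had an RNA change of −0.28 (edgeR adjusted p = 8.0e-06), with means of 73.1 ± 2.33 CPM with STM2457 and 88.6 ± 1.97 CPM with DMSO (SD, n = 4 each). RAD51C footprints had the same change, −0.28, without passing (limma adjusted p = 0.106). The RNA changes of RAD51D (−0.17, edgeR adjusted p = 0.0068) and XRCC3 (−0.13, adjusted p = 0.00217) were small. RAD51D was called neither with replicates 3 and 4 alone (adjusted p = 0.254) nor in the RNA columns of the table (adjusted p = 0.105). RAD51B RNA, at 5.56 ± 0.565 CPM with STM2457 and 5.03 ± 0.285 CPM with DMSO, changed by 0.14 without passing (edgeR adjusted p = 0.168).

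Of the 6 members that sense and trim breaks, RAD50 alone had lower RNA and none higher, where 21.6% and 26.2% of all genes were. Spike-in scaling, which called 47.1% of all genes lower, also called MRE11, RBBP8, ATM and ATR lower. RAD50, the ATPase of the MRE11 complex, was at 3.00, 2.98, 2.63 and 3.30 CPM with STM2457 and 3.95, 3.79, 3.96 and 3.42 CPM with DMSO. The arms did not overlap, and the change was −0.34 (SE 0.09, edgeR adjusted p = 0.0064). These levels stand for 112 to 154 counts per library with STM2457 and 176 to 207 with DMSO, and RAD50 lost its call with replicates 3 and 4 alone (adjusted p = 0.124). The nuclease MRE11 (−0.08), its partners NBN (0.08) and RBBP8 (0.06), and ATM (−0.09) did not pass in RNA. Without single RNA libraries MRE11 passed (−0.11, STM2457 replicate 4 left out, edgeR adjusted p = 0.0406), as did NBN (0.13, STM2457 replicate 3 left out, adjusted p = 0.0235). ATM passed without STM2457 replicate 4 or DMSO replicate 2 (−0.12 each, edgeR adjusted p 0.0229 and 0.0215) and with DESeq2 (adjusted p = 0.0369). In the RNA columns of the table MRE11 and ATM were called lower (−0.17 each, limma adjusted p 0.00388 and 0.00158). In footprints MRE11 was at 1139 and 1171 with STM2457 and 1133 and 1229 with DMSO, and NBN at 1394 and 1234 with STM2457 and 1242 and 1388 with DMSO, each with overlapping arms.

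Among the 5 members of the later steps, 3 had higher RNA and none lower, where 26.2% and 21.6% of all genes were. With spike-in scaling RMI1 and SLX4 were higher and BLM lower, where 12.1% and 47.1% of all genes were. RMI1, which acts with the helicase BLM to separate joined molecules without a crossover, had the largest RNA increase of the members in the edgeR fit. RMI1 RNA was at 49.3, 54.4, 45.1 and 49.2 CPM with STM2457 and 28.7, 28.0, 26.7 and 25.1 CPM with DMSO, a change of 0.87 (SE 0.06, edgeR adjusted p = 6.73e-08). RMI1 footprint signal was 698.8 and 624.7 with STM2457 and 347.6 and 347.0 with DMSO, a change of 0.93 (SE 0.18, limma adjusted p = 7.96e-05). Both arms were apart in both measures, and efficiency changed by 0.13 (limma adjusted p = 0.942). BLM itself had an RNA change of 0.03 and a footprint change of −0.03 and passed neither test. SLX4, a scaffold for DNA nucleases, rose in RNA by 0.47 (edgeR adjusted p = 3.48e-07), with 41.1 ± 0.757 CPM with STM2457 and 29.7 ± 1.19 CPM with DMSO (SD, n = 4 each). SLX4 footprint signal was 323 and 320 with STM2457 and 261 and 183 with DMSO, a change of 0.55 that did not pass (limma adjusted p = 0.1002). RAD54L, a motor protein that acts once the strands are being joined, had an RNA change of 0.19 (edgeR adjusted p = 0.0048) that became −0.0018 with spike-in scaling. Its relative RAD54B had 179 to 233 counts per library with STM2457 and 203 to 224 with DMSO and a change of 0.02.

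The 9 members of the Fanconi core and its ubiquitin-conjugating enzyme went both ways, with 4 higher and 2 lower in RNA. Over all genes, 26.2% were higher and 21.6% lower. With spike-in scaling FANCB and FANCE were higher and FANCA, FANCC, FANCG, FANCL and UBE2T lower, where 12.1% and 47.1% of all genes were. FANCL, the ubiquitin ligase of the core, had the largest RNA decrease of all members. FANCL RNA was at 19.1, 19.1, 20.4 and 21.4 CPM with STM2457 and 35.4, 35.7, 36.4 and 36.2 CPM with DMSO, a change of −0.84 (SE 0.04, edgeR adjusted p = 5.44e-09). FANCL footprint signal was 653.3 and 706.7 with STM2457 and 1056 and 1176 with DMSO, a change of −0.71 (SE 0.14, limma adjusted p = 0.000142). The arms were apart in both measures, and the efficiency change was 0.24 (limma adjusted p = 0.768).

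UBE2T, the ubiquitin-conjugating enzyme that works with FANCL, was lower in both measures as well. UBE2T RNA was at 72.1, 72.7, 72.8 and 71.5 CPM with STM2457 and 91.0, 88.4, 87.6 and 89.4 CPM with DMSO, a change of −0.30 (SE 0.02, edgeR adjusted p = 5.74e-07). UBE2T footprint signal was 3000 and 2456 with STM2457 and 3289 and 3436 with DMSO, a change of −0.31 (SE 0.10, limma adjusted p = 0.0306). The arms did not overlap, but the footprint call was lost without STM2457 replicate 2, DMSO replicate 1 or DMSO replicate 2 (adjusted p 0.387, 0.0877 and 0.229).

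FANCE, which links the core to FANCD2, rose in both measures. FANCE RNA was at 37.8, 35.2, 37.3 and 35.3 CPM with STM2457 and 26.0, 24.3, 24.6 and 24.2 CPM with DMSO, a change of 0.55 (SE 0.04, edgeR adjusted p = 1.7e-07). FANCE footprint signal was 676 and 620.8 with STM2457 and 350.8 and 419.3 with DMSO, a change of 0.75 (SE 0.18, limma adjusted p = 0.00122). FANCB, a core subunit that binds FANCL, rose in RNA and was not called in footprints. FANCB RNA was at 24.5, 25.4, 25.4 and 24.9 CPM with STM2457 and 16.8, 16.9, 16.6 and 16.3 CPM with DMSO, a change of 0.59 (SE 0.04, edgeR adjusted p = 5.24e-08). FANCB footprint signal was 429 and 273 with STM2457 and 286 and 294 with DMSO, a change of 0.24 with overlapping arms (limma adjusted p = 0.532).

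FANCM, a DNA translocase that anchors the core to damaged DNA, had the largest positive efficiency change of the members. FANCM RNA was at 38.3, 36.7, 33.3 and 36.2 CPM with STM2457 and 32.6, 30.0, 29.8 and 31.2 CPM with DMSO, a change of 0.23 (SE 0.05, edgeR adjusted p = 0.00144) that was 0.03 and not called with spike-in scaling. FANCM footprint signal was 907.7 and 773.1 with STM2457 and 495.7 and 486.8 with DMSO, a change of 0.77 (SE 0.16, limma adjusted p = 0.000251). The arms were apart in both measures. The efficiency change of 0.60 (SE 0.17) missed the threshold with limma (adjusted p = 0.142) and passed with the edgeR interaction (0.59, adjusted p = 0.0132), which did not call it with RNA replicates 1 and 2 only (0.57, adjusted p = 0.055).

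FANCF, an adaptor of the core, was barely counted, with 17 to 27 counts per library with STM2457 and 10 to 15 with DMSO. In CPM these were 0.345, 0.568, 0.446 and 0.407 with STM2457 and 0.248, 0.281, 0.212 and 0.291 with DMSO. The arms did not overlap, and the change of 0.76 (SE 0.22) had an edgeR adjusted p of 0.0132, which became 0.0691 with DESeq2, 0.0604 with spike-in scaling and 0.0576 without STM2457 replicate 2. The core subunits FANCA (−0.05), FANCC (0.01) and FANCG (−0.04) did not pass in RNA, nor in footprints. FANCD2 and FANCI, the pair of proteins that the core modifies, did not pass in RNA, footprints or efficiency. Spike-in scaling gave them RNA changes of −0.21 and −0.24, near the −0.19 of the median gene, and called both. The RNA columns of the table gave −0.08 and −0.09 and called both too (limma adjusted p 0.0236 and 0.0177). FANCD2 RNA was at 88.2 ± 0.635 CPM with STM2457 and 88.9 ± 2.66 CPM with DMSO (SD, n = 4 each), a change of −0.01. FANCI, with 867 to 1244 recovered reads per library the best counted member in footprints, had a footprint change of 0.05 (SE 0.09) and an RNA change of −0.04.

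A list of 76 further genes of recombination, the Fanconi pathway and the damage response, none of them members, was counted the same way. Of 74 tested in RNA, 23 were higher and 11 lower, where 26.2% and 21.6% of all genes were. Of 71 tested in footprints, 8 were higher and 6 lower, where 9.59% and 6.13% of all genes were. In efficiency 0 of 71 were higher and 1 was lower, where 0.229% and 0.807% of all genes were. The lower one was RNF168, a ubiquitin ligase that marks chromatin at breaks. RNF168 RNA was at 77.2 ± 2.63 CPM with STM2457 and 38.9 ± 1.97 CPM with DMSO (edgeR change 0.99, adjusted p = 7.84e-10), while its footprint signal was 414.0 and 343.6 with STM2457 and 492.4 and 419.3 with DMSO (limma change −0.27, adjusted p = 0.388). Its efficiency change was −1.15 (limma adjusted p = 0.0072). FAAP100, a core subunit that binds FANCB and FANCL, had an RNA change of −1.46 (edgeR adjusted p = 1.38e-10) and a footprint change of −1.43. ERCC4, the nuclease subunit XPF that SLX4 holds, had an RNA change of 0.94 (edgeR adjusted p = 3.29e-09) and a footprint change of 1.12, and RNF8, the ligase upstream of RNF168, an RNA change of 0.65 (edgeR adjusted p = 8.41e-10).

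Many members vary with the cell cycle, so cell-cycle genes are given beside them. Of 20 genes of the G1/S transition 8 were higher and 5 lower in RNA, and of 15 G2/M genes 0 were higher and 8 lower (median change −0.09). Of 13 p53 target genes 6 were higher and 3 lower in RNA. Over all 17807 genes tested, 26.2% were higher and 21.6% lower in RNA. No gene of these 3 lists passed the efficiency test, where 0.229% of all genes were higher and 0.807% lower. In bulk samples fewer cells in a phase and less RNA per cell cannot be told apart, and the part of the cell cycle in the members' RNA changes was not tested.

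Most members share their locus with another gene in the RefSeq annotation. RMI1 overlaps HNRNPK, FANCL overlaps VRK2, BRCA2 overlaps ZAR1L, RAD50 overlaps the non-coding TH2LCRR and RAD54B overlaps FSBP. XRCC3 (KLC1), MRE11 (ANKRD49), ATM (C11orf65) and RAD54L (LRRC41) overlap the protein-coding genes in brackets. So do FANCA (ZNF276), FANCB (GLRA2), FANCC (AOPEP), FANCD2 (FANCD2OS) and FANCI (POLG). Whether the authors' counting used strand is not given in the sources used here, so reads of such pairs may not be told apart. BARD1, PALB2, BRIP1, XRCC2, NBN, FANCE, FANCF, FANCG, FANCM and UBE2T overlap no gene of that annotation.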

How the data were processed

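RNA-seq files hold read counts per gene and for 92 ERCC spike-in sequences as deposited by the authors. The series table holds the authors' normalized signal per library, their efficiency ratio (mean footprint over mean RNA signal) and its log2 fold change, per the file headers. STAR 2.7.3a, Subread 2.0.3 with featureCounts, UMI-tools 1.1.2, SAMtools 1.10, DESeq2, bedtools 2.29.2, FastQC 0.11.9 and GRCh38.p12 stand in the submitters' processing notes, which give no roles. Footprints are of 26 to 34 nt and RNA libraries are poly(A)-selected and strand-specific, per the labels' protocols. Of 60662 identifiers 60261 matched a symbol.

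RNA counts were tested with edgeR 4.0.16 in R 4.3.3 (TMM, filterByExpr, quasi-likelihood test, spike-ins left out). Footprint signals were 100% whole multiples of 1 read within 0.1, so reads were recovered. Genes averaging 10 or more recovered reads per library were tested with limma 3.58.1 on log2(signal + 1), which understates changes of low genes. Efficiency is the interaction of assay and treatment on the footprint and RNA columns of the table, with a weight per assay (0.263 for footprints, 1.95 for RNA). The edgeR interaction, on RNA counts and recovered reads, is read beside it. The RNA columns and the RNA counts scale differently by gene, for a reason not given. With STM2457 the mean RNA signal was 345 at 72.4 CPM for XRCC2 and 1792 at 96.6 CPM for BRCA1. P-values were Benjamini-Hochberg adjusted over all genes tested (threshold 0.05). Scripts were tested on simulated data. Alternatives include DESeq2 1.42.0, spike-in scaling and leaving out single libraries.

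Members and lists were chosen with earlier results of these data known, among them the large fall of BRCA2 efficiency. Every member is named; values per library are given for BRCA2, members past the footprint or efficiency test, and the 4 largest RNA increases and decreases. Of the further genes, the 4 with the smallest RNA p and those past the efficiency test are named. A further list of markers of other cells is not reported here.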

Additional observations from a re-analysis of the deposited data

Results flagged for a closer look

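XRCC3 RNA in STM2457 replicate 1 was at 67.6 CPM, below the other STM2457 libraries, which lay between 69.3 and 69.6 CPM. The gap to the nearest library was 0.856 of the group's range, above Dixon's 95% critical value for 4 samples. This was 1 of 64 groups of 4 RNA libraries looked at for the 32 members, and chance flags about 1 in 20.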

How the results depend on the processing

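BRCA2 kept its direction and its side of the threshold for RNA, footprints and efficiency under every alternative run, with RNA changes from 0.17 (spike-in scaling) to 0.45, footprint changes from −2.82 to −1.73 and efficiency changes from −3.16 to −2.08. With spike-in scaling 6 members were higher and 19 lower in RNA, and the RNA columns of the table, an alternative added after seeing the data, gave 12 lower. For efficiency, a limma fit with 1 spread shared by both assays gave 2 members higher and 4 lower, and the edgeR interaction 1 higher. In earlier work on these data the shared spread made many false calls on simulated data, so it was not the main fit. The edgeR interaction also fits 1 dispersion per gene to both assays, which limits what its smaller p-values add. Leaving out 1 library gave 9 to 12 members higher and 7 to 9 lower in RNA, 3 to 4 higher and 4 to 6 lower in footprints, and 1 to 2 lower in efficiency. Over all genes, calls moved by more than 1.5 times for RNA with spike-in scaling (2159 higher and 8383 lower, against 4669 and 3842). In the table, where 10906 genes were tested, 2991 were higher and 3769 lower, so that the share of lower genes was 34.6%, against 21.6% of 17807. Lower footprint calls fell to 262 and 367 without DMSO footprint replicates 2 and 1, against 669. Efficiency calls ran from 7 to 339 higher and 30 to 486 lower over its alternatives, against 25 and 88, and the edgeR interaction gave 124 and 301. The causes were not tested.

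Same-numbered libraries correlated weakly (r of RNA libraries 0.151, 0.227, 0.148 and 0.0763, of footprint libraries 0.00641). STM2457 RNA replicate 2 alone correlated best with its own number. Still, every STM2457 RNA library correlated best with a DMSO library of its own set, replicates 1 and 2 or replicates 3 and 4. The second principal component separates the same sets in both arms, and the labels do not say what sets them apart. The main RNA fit leaves this out. A block on replicate number called 5094 genes higher and 4448 lower in RNA, against 4669 and 3842. With the replicate block, 10 members were higher and 9 lower in RNA (BARD1 and ATM added), 4 and 6 in footprints, and 1 (FANCM) and 2 in efficiency.

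RNA changes of members near 0 turned sign. With spike-in scaling these were BRCA1 (−0.14), PALB2 (−0.049), RAD51B (−0.051), NBN (−0.12), RBBP8 (−0.14), ATR (−0.15), BLM (−0.17), RAD54L (−0.0018), RAD54B (−0.17) and FANCC (−0.18). In the RNA columns of the table they were BRCA1 (−0.0031), RBBP8 (−0.012), ATR (−0.11), BLM (−0.041), RAD54B (−0.092) and FANCC (−0.058). With replicates 1 and 2 only, BRCA1 (−0.0045), RAD54B (−0.027) and FANCD2 (0.0068) turned, with replicates 3 and 4 only FANCG (0.0041), and FANCC with DESeq2 size factors (−0.0033) and DESeq2 (−0.0032). Without single libraries the RNA change ran from −0.0026 to 0.063 for BLM, −0.039 to 0.10 for RAD54B, −0.13 to 0.0072 for FANCA, −0.011 to 0.028 for FANCC, −0.028 to 0.0036 for FANCD2 and −0.10 to 0.0083 for FANCG, and UBE2T efficiency from −0.073 to 0.22. Depth limits footprints, where members with few reads, such as RAD51D with 21 to 49 per library, have wide errors.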
